A study of Mus musculus with 2 samples.

Results

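Deoxynucleotide synthesis enzymes make the DNA building blocks (dNTPs) and keep their pool clean, and 7 of their genes were named for this account: *Rrm1*, *Rrm2*, *Tk1*, *Tyms*, *Dut*, *Dctpp1* and *Dck*. The list was chosen with earlier results of these data known. Its genes were then found by matching Ensembl identifiers to gene symbols, without use of any expression value. Of the 7, 6 were present among the 10666 genes of the normalized expression table. *Dctpp1*, which hydrolyses surplus and modified dCTP, was not analysed here. The data are single-cell RNA-seq of 2 replicate cultures of 1 condition, culture 1 with 5748 cells and culture 2 with 7057. The cells were neurospheres, which are neural progenitors that grow as spheres in suspension, started from C57BL/6 wild-type embryos at embryonic day 14.5 (dorsal telencephalon) and kept in EGF and bFGF at 10 ng/ml each. The labels and the methods give different versions of the Chromium library kit. The question put to these genes was when along the cell cycle, and by how much, each of them was expressed.

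Ribonucleotide reductase turns ribonucleotides into deoxyribonucleotides, with *Rrm1* encoding the large regulatory subunit and *Rrm2* the small radical-bearing subunit of dividing cells. *Tyms* (thymidylate synthase) makes dTMP from dUMP, *Dut* (dUTPase) supplies that dUMP and removes dUTP before it can enter DNA, and *Tk1* and *Dck* salvage deoxynucleosides by phosphorylating thymidine and deoxycytidine (*Dck* also deoxyadenosine and deoxyguanosine). Demand for dNTPs is tied to DNA replication in S phase, and mRNAs of several of these enzymes are classical cell-cycle genes, driven at the start of S phase by E2F factors and, for genes that stay on into G2, by CCAAT-box and CHR-element promoters.

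The proximal promoters are shown because the 6 measured genes moved together along the cycle. RefSeq promoter windows (GRCm38.p6, 250 bases before to 50 after each annotated start) were found for all 7 named genes and searched on both strands for CCAAT, for the CHR words TTTGAA and TTTAAA, for the GC box GGGCGG and for 4 E2F words (TTTCGCGC, TTTGGCGC, TTTCCCGC and TTTGCCGC). No matches overlap in the stretches shown. Below are the 120 bases next to the outermost annotated start of 4 genes, 5′ to 3′ on the gene's strand, with matches on either strand in capitals (CCGCCC is the GC box on the other strand). *Rrm1* (chr7:102441575-102441694, + strand) holds a pair of CCAAT boxes, *Rrm2* (chr12:24708121-24708240, + strand) a GC box and a CCAAT box, *Tk1* (chr11:117826093-117826212, − strand) a CHR word, and *Dck* (chr5:88764876-88764995, + strand) GC boxes alone.
Rrm1: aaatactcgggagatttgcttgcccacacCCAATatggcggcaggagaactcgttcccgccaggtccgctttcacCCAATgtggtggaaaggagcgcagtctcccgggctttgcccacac
Rrm2: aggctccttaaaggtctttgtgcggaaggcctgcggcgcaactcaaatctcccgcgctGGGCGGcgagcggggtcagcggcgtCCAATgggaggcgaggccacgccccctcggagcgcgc
Tk1: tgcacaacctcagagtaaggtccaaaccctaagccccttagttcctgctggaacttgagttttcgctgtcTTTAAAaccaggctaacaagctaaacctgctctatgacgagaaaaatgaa
Dck: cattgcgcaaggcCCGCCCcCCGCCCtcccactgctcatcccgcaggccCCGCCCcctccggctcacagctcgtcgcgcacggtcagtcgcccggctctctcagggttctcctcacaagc

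In the full windows, CCAAT was present in *Rrm1*, *Rrm2* and *Dctpp1*, against 37.4% of all 32851 RefSeq promoters of that length. A CHR word was present in *Rrm2*, *Tk1* and *Dck* (27.6% of all promoters), and the GC box in every named gene except *Rrm1* (35.7% of all). None of the 7 windows held 1 of the 4 E2F words, which 2.26% of all promoters hold. These are matches of letters, which say nothing of whether a factor binds there or elsewhere.

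By the GENCODE models of GRCm38, *Rrm1* lies at chr7:102441695-102469771 (+ strand), *Rrm2* at chr12:24708241-24714146 (+), *Tk1* at chr11:117815526-117826092 (−), *Tyms* at chr5:30058202-30073617 (−), *Dut* at chr2:125247190-125258608 (+) and *Dck* at chr5:88764996-88783281 (+). *Rrm1* overlaps the annotated gene *Gm45399* on its own strand, *Tk1* overlaps *Afmid* and *Gm20708* on the other strand, and *Tyms* has an annotated pseudogene, *Tyms-ps*. Reads shared with a gene on the same strand or with a pseudogene cannot be told apart in this table. The levels of *Rrm1* and *Tyms* carry that uncertainty. Whether the genes on the other strand affect the level of *Tk1* was not tested.

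Each cell had a cell-cycle position, an angle from 0 to 2π that the authors computed from the cell-cycle genes of the same cells, so it is not fully independent of the members. *Top2a* and other G2 and mitosis genes peaked near π in these cells, and the arc from 1.75π to 2π, where all 6 members were lowest, held 31.1% of the cells of culture 1 and 44.6% of culture 2. Depth had a median of 19477 UMIs per cell in culture 1 and 14637 in culture 2, over a range of 5957 to 103199, and itself followed the cycle, with a maximum at 0.89π and 0.915π and an amplitude of 0.38 and 0.31 on the log2 scale. Of 8 neural stem and progenitor markers 6 were in the table, with *Vim* above 0 in 99.2% and 99.9% of cells *Nes* in 93.3% and 89.8%, *Hes1* in 44.5% and 50.5% and *Pax6* in 21.1% and 23.1%. The neuronal marker *Dcx* was above 0 in 7.34% and 1.56% of cells and the astrocyte marker *S100b* in 18.6% and 6.65%. *Sox2* and *Hes5* were not analysed here, and the table held no microglial, vessel or erythroid marker. *Olig2*, counted among the oligodendrocyte progenitor markers, was above 0 in 97.3% and 91.9% of cells, while *Pdgfra* was above 0 in 8.77% and 1.81% and *Sox10* in 4.26% and 0.751%. *Cspg4*, another of these markers, was above 0 in 11.8% and 13.7%. The cultures shared 48 cell barcodes.

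All 6 measured members varied with the cell cycle. Each was fitted in each culture with 2 harmonics of the position on log2(value + 1), and a gene was called where the position accounted for at least 0.05 of its variance (R²) in both cultures, which 428 of the 10666 genes, or 4.01%, met. All 6 also had the maximum of that curve between 0.5π and π in both cultures, as did 210 genes, or 1.97% of the table. Ranked by the lower R² of the 2 cultures, the members stood at 14 (*Rrm2*), 35 (*Tk1*), 43 (*Dut*), 86 (*Rrm1*), 120 (*Tyms*) and 286 (*Dck*). The R² was 0.776 in culture 1 and 0.600 in culture 2 for *Rrm2*, 0.455 and 0.410 for *Tk1*, and 0.109 and 0.0826 for *Dck*, against a median of 0.00183 for the lower R² over all genes. With depth (log2 total UMIs, and its square) added to the fit, the position still accounted for 0.771 and 0.601 of the remaining variance of *Rrm2* and for 0.105 and 0.0741 of that of *Dck*, so the differences in depth between arcs moved these values little. The members' R² was lower in culture 2, the shallower one, for each of the 6 genes, and the part of depth in that gap was not tested. Among cells of 12000 to 20000 UMIs, the R² of the smooth line used below was higher in culture 2 for *Tk1* (0.459 against 0.361). For each other member it was lower in culture 2 there as well.

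**Figure D1:**
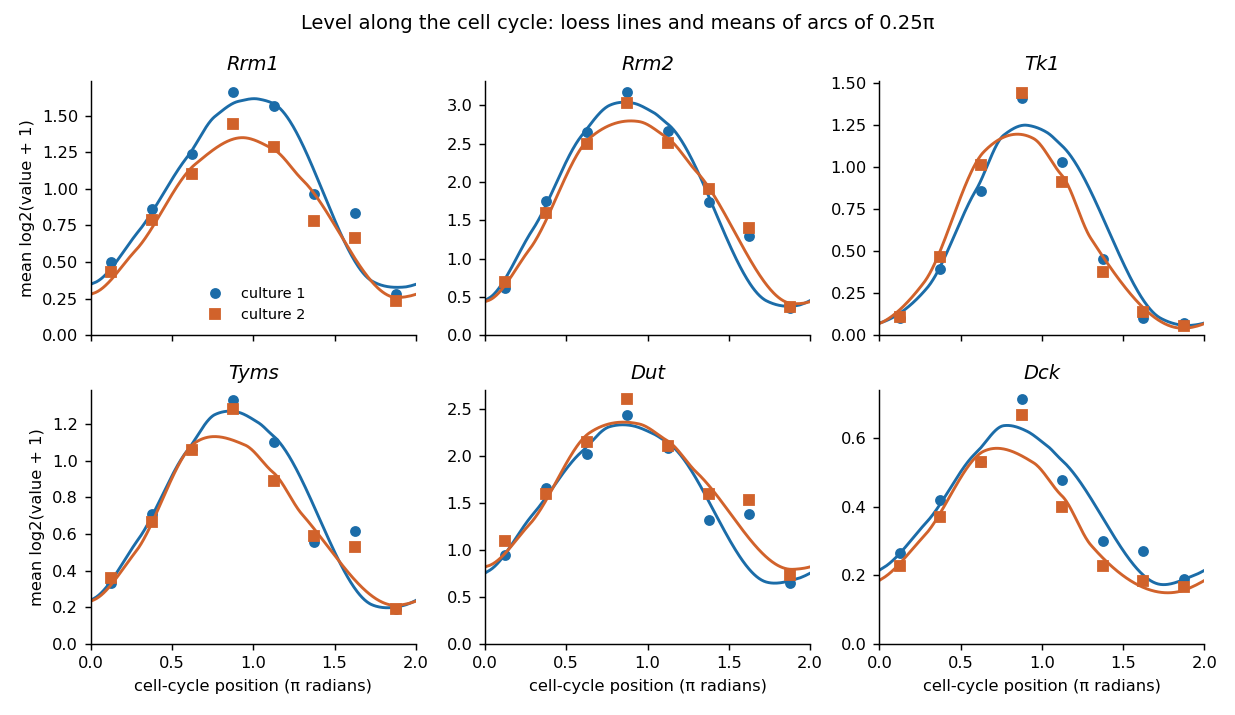
Mean log2(value + 1) of the 6 members (vertical axis) by cell-cycle position in units of π (horizontal axis), with points for the mean of each arc in culture 1 and culture 2 and lines for the periodic loess fit (span 0.3). All 6 genes are highest in the arc from 0.75π to π in both cultures, and the smooth lines run below the points at the top of the peak, as for *Tk1*, whose arc means there are 1.41 and 1.44.

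Cells were grouped into 8 arcs of 0.25π to give levels without smoothing. In the arc from 0.75π to π, with 992 cells of culture 1 and 546 of culture 2, every member had its highest mean in both cultures, and in the arc from 1.75π to 2π, with 1789 and 3149 cells, its lowest. For *Rrm2*, the mean normalized value was 8.71 in culture 1 and 8.53 in culture 2 in the high arc, against 0.388 and 0.480 in the low arc. For *Rrm1*, it was 2.51 and 2.28 in the high arc against 0.301 and 0.292. Both cultures of the high arc thus lay far above both cultures of the low arc for either subunit of ribonucleotide reductase. For *Tk1*, the means were 2.04 and 2.33 against 0.0754 and 0.0642. For *Tyms*, they were 1.84 and 1.96 against 0.194 and 0.233. The low arc of *Tk1* was close to 0, while *Tyms* kept a measurable level there. *Dut* had means of 4.94 and 5.85 in the high arc and 0.792 and 1.02 in the low arc. *Dck* had 0.812 and 0.829 against 0.208 and 0.192, the smallest contrast of the 6.

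These contrasts can be set side by side as folds within each gene. The deposited values move in fixed steps whose size belongs to each gene in each culture, so each was divided by its step to give UMIs per 10000, a scale chosen after the data were seen. On that scale the high arc exceeded the low arc 27.3-fold in culture 1 and 36.0-fold in culture 2 for *Tk1*, and 22.6-fold and 17.1-fold for *Rrm2*. *Tyms* followed with 9.40-fold and 8.27-fold and *Rrm1* with 8.39-fold and 7.69-fold. *Dut* changed 6.14-fold and 5.74-fold, and *Dck* 3.98-fold and 4.18-fold. The order of the 6 genes was the same in both cultures, but the gaps between *Tyms* and *Rrm1* were no larger than the gap between the cultures within *Tyms*. The low arc of *Tk1* rested on 147 UMIs in 1789 cells and 144 UMIs in 3149 cells, which makes its fold the least precise.

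The same contrast appeared in the share of cells with a value above 0. *Rrm2* was detected in 100% of cells of the high arc in culture 1 (exact 95% interval from 99.6% to 100%) and in 98.0% in culture 2 (from 96.4% to 99.0%), and in 36.0% and 23.9% of the low arc. *Tk1* was detected in 86.2% (from 83.9% to 88.3%) and 78.8% (from 75.1% to 82.1%) of the high arc and in 7.49% and 4.45% of the low arc. *Dck* was detected in 64.5% (from 61.4% to 67.5%) and 49.8% (from 45.5% to 54.1%) of the high arc and in 17.8% and 13.1% of the low arc. For each of these genes the low-arc share lay far below the high-arc share in both cultures. These intervals cover counting error only, and the cells of 1 culture share their source. With every cell thinned to 10000 UMIs, which left out 353 shallower cells of culture 1 and 635 of culture 2, the shares in the high and low arcs became 66.1% and 4.0% for *Tk1* in culture 1 and 61.9% and 3.14% in culture 2. The thinned shares of *Dck* were 35.9% and 9.59% in culture 1 and 33.7% and 9.03% in culture 2, so its gap between the cultures in the high arc was smaller at equal depth. That was not so for ribonucleotide reductase, whose thinned high-arc shares were 78.6% and 59.9% for *Rrm1* (94.6% and 79.7% unthinned) and 98.9% and 93.0% for *Rrm2*, wider apart than before. No cell class known to lack these transcripts was available here, so the share that free RNA alone would give is not known.

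The rise through the early cycle differed between the genes. Each gene was expressed as a percent of its own highest arc, so that only its course is compared. From 0 to 0.25π, *Tk1* stood at 5.22% of its highest arc in culture 1 and 5.23% in culture 2, and *Rrm2* at 8.59% and 11.7%. The other 4 members stood higher in that arc, at up to 35.7% for *Dck* in culture 1. From 0.25π to 0.5π, *Tk1* had reached 21.3% and 25.4% and *Rrm2* 32.2% and 33.0%, while *Tyms* had reached 45.7% and 45.3% and *Dck* 58.5% and 52.1%. *Tk1* was the lowest of the 6 in each of these arcs and *Dck* the highest in both cultures. From 0.5π to 0.75π the 6 genes lay between 54.3% and 79.2%.

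After the maximum the order was another one. From π to 1.25π, *Rrm1* still stood at 91.2% of its highest arc in culture 1 and 84.7% in culture 2, above each other member in both cultures. *Dck*, at 63.9% and 55.2%, and *Tk1*, at 67.2% and 53.5%, were the lowest there. From 1.25π to 1.5π, *Rrm1* stood at 51.6% and 49.0% and *Tk1* at 25.2% and 21.0%. From 1.5π to 1.75π, *Tk1* was down to 5.33% and 6.53%, while each other member lay between 23.1% and 41.1%. *Tk1* thus fell furthest below its maximum of the 6 by then, after *Rrm1* had stayed closest to its own from π to 1.25π. The arcs from 1.25π to 1.75π held few cells, 85 and 64 in culture 1 and 279 and 189 in culture 2.

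**Figure D2:**
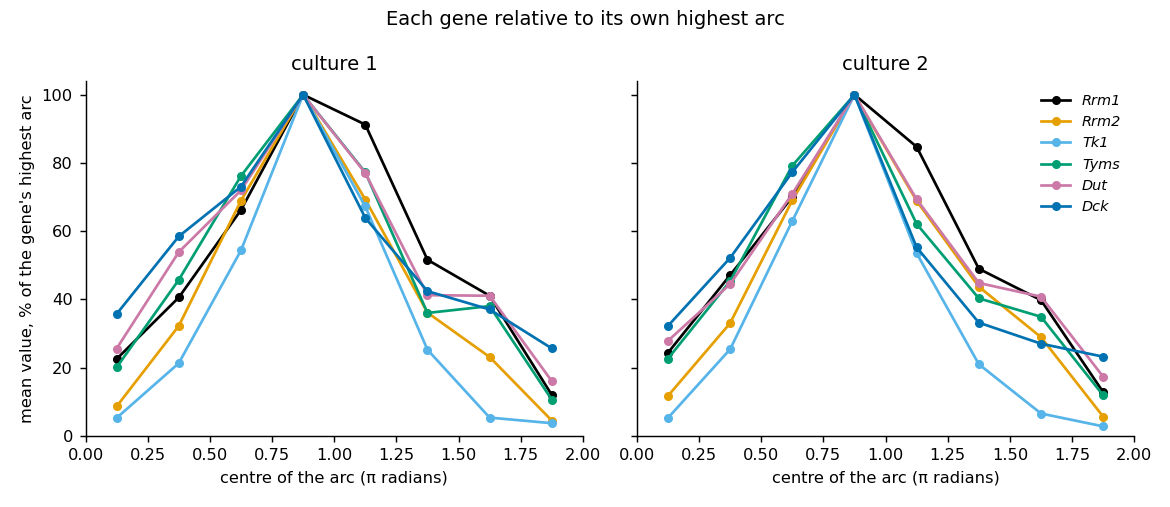
Mean normalized value of each member in each arc of 0.25π, as a percent of the same gene's highest arc (vertical axis), by cell-cycle position in units of π (horizontal axis), for culture 1 and culture 2. *Tk1* starts lowest, at 5.22% and 5.23%, and *Rrm1* stays highest from π to 1.25π, at 91.2% and 84.7%.

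The smooth lines put numbers on this timing. With a periodic loess line of span 0.3, the maxima of the members fell between 0.785π and 1.005π in culture 1 and between 0.725π and 0.935π in culture 2. *Dck* peaked at 0.785π and 0.725π, *Tyms* at 0.855π and 0.76π, *Dut* at 0.845π and 0.85π, *Rrm2* at 0.855π and 0.895π, *Tk1* at 0.895π and 0.85π, and *Rrm1* at 1.005π and 0.935π. *Dck* was the earliest and *Rrm1* the latest in both cultures, but the cultures differed by between 0.005π (*Dut*) and 0.095π (*Tyms*) for a single gene, so *Tyms*, *Dut*, *Rrm2* and *Tk1* are not placed apart from each other. Nor is *Dck* placed apart from *Tyms*. In culture 2 the harmonic fit put *Tyms* before *Dck*, at 0.79π against 0.805π. *Rrm1* was the last of the members, or tied for last, under each of the 11 alternative settings tried. Those that left 1 culture out are among the 11, and the order in both cultures already fixed their outcome.

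The amplitude of the line, its maximum minus its minimum on log2(value + 1), was 2.66 in culture 1 and 2.38 in culture 2 for *Rrm2*. It was 1.69 and 1.57 for *Dut*, 1.29 and 1.09 for *Rrm1*, 1.19 and 1.15 for *Tk1*, 1.07 and 0.92 for *Tyms*, and 0.46 and 0.42 for *Dck*. This scale understates the change of low genes such as *Tk1*, which had the largest fold above. The line passed the midpoint of its rise at 0.35π and 0.395π for *Dut* and at 0.375π and 0.35π for *Dck*. It did so at 0.45π and 0.42π for *Rrm1* and at 0.49π and 0.425π for *Tk1*, the last of the 6 in both cultures. *Tk1* was not last under every setting. At a span of 0.5, *Rrm1* was later (0.505π against 0.495π and 0.575π against 0.555π). On UMIs per 10000, *Rrm1* was later in culture 2 (0.43π against 0.425π). The line passed the midpoint of its fall at 1.325π and 1.21π for *Dck*, the earliest, and at 1.43π and 1.47π for *Rrm1*, the latest. *Rrm1* was not the latest under every setting: at a span of 0.1, *Rrm2* was later in culture 2 (1.515π against 1.34π).

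A narrower span of 0.1 followed the points more closely. It put the midpoint of the rise of *Tk1* at 0.61π and 0.53π and that of its fall at 1.16π and 1.17π, so the band above the midpoint was 0.55π and 0.64π wide, the narrowest of the 6. *Tk1* was also the narrowest at a span of 0.3 (0.905π and 0.85π, with *Dck* at 0.95π and 0.86π), but not under every setting: *Dck* was narrower in culture 2 at a span of 0.5 (0.79π against 0.885π) and with a position built without the members (0.80π against 0.83π), and in culture 1 in cells of 12000 to 20000 UMIs (0.89π against 0.95π). At a span of 0.1 the band of *Rrm2* was 1.005π and 1.12π wide, the widest. The maxima moved with this choice as well, for example from 0.725π to 0.87π for *Dck* in culture 2, and *Dck* was then no longer the earliest, which was *Rrm2* at 0.89π in culture 1 and *Tyms* at 0.82π in culture 2. *Rrm1* was level with *Tk1* at 0.965π in culture 1 and last at 0.95π in culture 2.

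**Figure D3:**
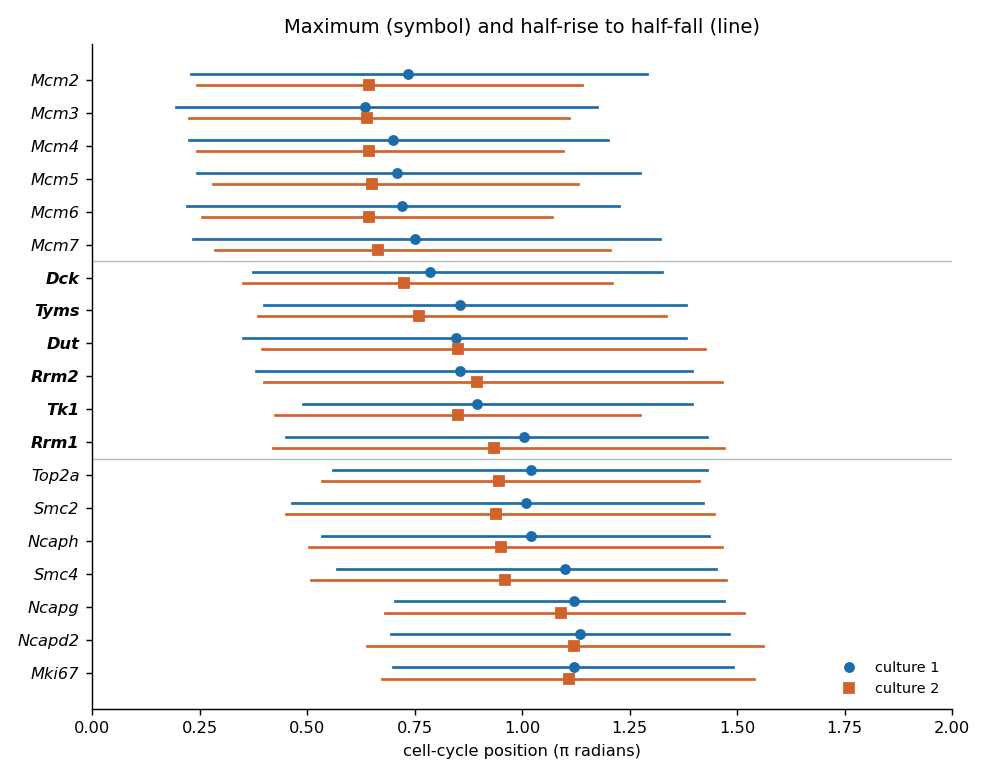
Position of the loess maximum (filled point, span 0.3) and of the midpoints of the rise and fall (ends of the bar) for each member and each comparison gene, in units of π, by culture. The maxima of the members lie between those of *Mcm2* to *Mcm7* and of the mitotic genes in both cultures, though *Rrm1* is not placed apart from the latter. *Dck* is first at 0.785π and 0.725π and *Rrm1* last at 1.005π and 0.935π.

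The maxima of the members lay between those of genes for the start of replication and those of genes for mitosis. *Mcm2* to *Mcm7*, which encode the replicative helicase, peaked between 0.635π and 0.75π in culture 1 and between 0.64π and 0.665π in culture 2. *Top2a*, *Mki67* and the condensin subunits *Smc2*, *Smc4*, *Ncapd2*, *Ncapg* and *Ncaph* peaked between 1.01π and 1.135π in culture 1 and between 0.94π and 1.12π in culture 2. The range of the 6 members overlapped neither set in either culture, although *Rrm1*, at 1.005π and 0.935π, came next to the earliest mitotic gene, at 1.01π and 0.94π. The maxima of *Rrm1* itself differed by 0.07π between the cultures, so *Rrm1* is not placed apart from the mitotic genes. The medians over each set were 0.715π and 0.645π for the helicase, 0.855π and 0.85π for the members, and 1.10π and 0.96π for the mitotic genes. In culture 1 the ranges stayed apart at a span of 0.1 as well. There the helicase lay between 0.695π and 0.825π, the members between 0.89π and 0.965π and the mitotic genes between 1.02π and 1.08π. In culture 2 at that span the members lay between 0.82π and 0.95π, and no separation from the other sets is claimed there.

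Stage labels deposited for the same cells gave another view of this timing, and they did not place the members alike. By the Seurat stages, the mean log2(value + 1) of *Rrm2* was 0.43 in G1, 2.58 in S and 2.73 in G2M in culture 1, and 0.42, 2.29 and 2.37 in culture 2. *Tk1* stood at 0.084 in G1, 0.88 in S and 1.13 in G2M in culture 1, and at 0.066, 0.88 and 0.82 in culture 2, so the cultures differed in which of the later stages was higher. Of the 6 members only *Dck* was higher in S than in G2M in both cultures by these stages. By cyclone *Rrm2*, *Tk1* and *Dut* were so, and by SchwabeCC all 6, with G2.M set against S. The authors describe cyclone as weak at labelling S cells and SchwabeCC as placing G0/G1 cells in other stages. The S group of cyclone held only 133 cells of culture 1 and 56 of culture 2. In the G2.M group of SchwabeCC, *Rrm2* was above 0 in 64.5% and 61.8% of cells. *Rrm1*, *Rrm2* and *Tyms* are among the S genes that Seurat scores, so its stages are not independent of these 3.

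The number of members detected in a cell followed the position. In the arc from 0.75π to π, cells had a mean of 5.33 of the 6 members above 0 in culture 1 and 4.79 in culture 2. All 6 were above 0 in 49.0% and 24.0% of those cells. From 1.75π to 2π the mean was 1.63 and 1.18 members, and 16.7% and 28.4% of cells had none. From 0 to 0.25π it was 2.30 and 1.92, and from π to 1.25π it was 4.85 and 4.15. Both cultures had the highest mean from 0.75π to π and the lowest from 1.75π to 2π, and the mean was lower in culture 2 in each of the 8 arcs.

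**Figure D4:**
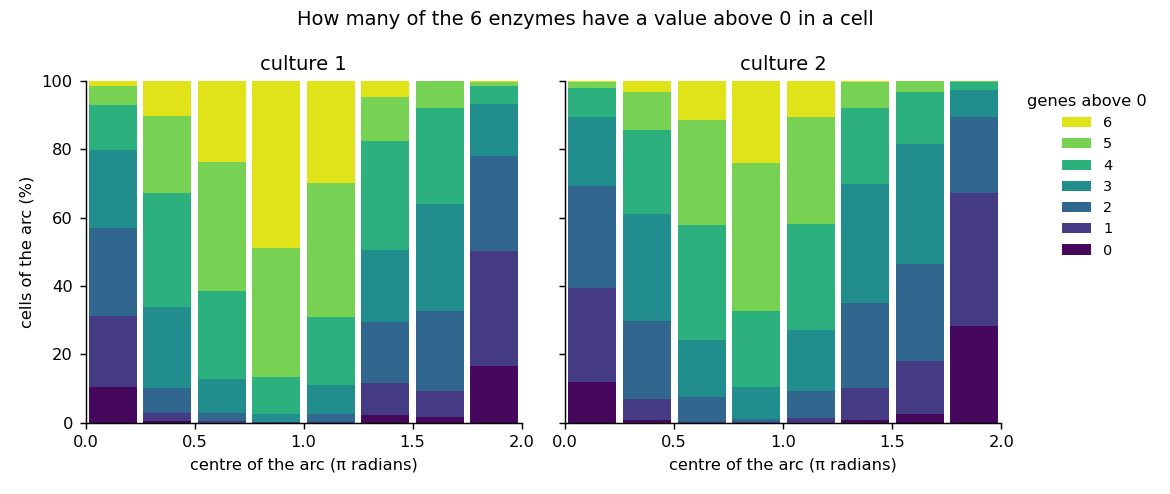
Percent of cells (vertical axis) with 0 to 6 members above 0, stacked by arc of cell-cycle position (horizontal axis, units of π), for culture 1 and culture 2. All 6 members are above 0 in 49.0% and 24.0% of cells from 0.75π to π, and none in 16.7% and 28.4% of cells from 1.75π to 2π.

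Ribonucleotide reductase needs both of its subunits. Both *Rrm1* and *Rrm2* were above 0 in 94.6% of cells of culture 1 and 78.4% of culture 2 from 0.75π to π, and in 13.0% and 5.43% from 1.75π to 2π. Over all cells, 16.5% and 24.4% had a value for *Rrm2* alone, 7.81% and 8.79% for *Rrm1* alone, and 19.2% and 36.1% for neither. From 0.25π to 0.5π, *Rrm2* alone was found in 23.2% and 39.5% of cells and *Rrm1* alone in 2.93% and 11.5%. Cells with *Rrm2* alone were the more frequent of the 2 kinds in both cultures, and since detection depends on depth and on each transcript's abundance, these shares do not say that the other subunit was absent from a cell.

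Members were correlated across cells, and less so once position and depth were fitted out. Pearson's r of log2(value + 1) over the 15 pairs of members ran from 0.214 to 0.664 in the 5748 cells of culture 1 (median 0.483) and from 0.130 to 0.528 in the 7057 cells of culture 2 (median 0.343). After the position and the log2 of total UMIs were fitted out, r ran from 0.0221 to 0.15 (median 0.0756) in culture 1 and from −0.00183 to 0.102 (median 0.0498) in culture 2. *Rrm2* and *Tk1* kept the highest residual r in both cultures, at 0.15 and 0.102. The cells of a culture share 1 library, depth and position, and correlations this weak in sparse counts are given as descriptions.

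Among genes that are not members, the one whose values were most like theirs was the same for all 6. *Pclaf*, which encodes a PCNA-binding protein, had the highest r of these genes across cells with each member, taking the lower r of the cultures, at 0.712 for *Rrm2*, 0.607 for *Dut*, 0.565 for *Tk1*, 0.494 for *Rrm1*, 0.454 for *Tyms* and 0.246 for *Dck*. *Hmgb2* and *Top2a*, in either order, were the next of these genes for *Rrm1*, *Tk1*, *Tyms* and *Dut*. The third gene for *Rrm2* was *Smc2*, at 0.599, and the second for *Dck* was *Tipin*, a replication fork protection factor, at 0.226.

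Most other genes of nucleotide metabolism did not follow the cycle to the same degree. Of 78 genes considered for the pathway, 62 were in the table, and 13 of them, or 21.0%, were called, including the 6 members. Of the 56 that were not members, 7 were called, or 12.5%, against 4.01% of all genes, and the median lower R² of the 56 was 0.00710 against 0.00183. Of the 7, 4 peaked between 0.5π and π by the harmonic fit. These were the folate enzymes *Shmt1* (R² of 0.134 in culture 1 and 0.0891 in culture 2) and *Mthfd2* (0.145 and 0.0726), *Umps* of pyrimidine synthesis (0.149 and 0.0865) and *Ppat* of purine synthesis (0.0706 and 0.0541). Each had a lower R² than *Tyms*, and *Shmt1* and *Umps* stood beside *Dck* (0.109 and 0.0826). *Dtymk*, the kinase that carries dTMP on to dTDP, had an R² of 0.156 and 0.133 and a loess maximum at 1.025π and 0.845π, so the cultures placed it on either side of π. *Nt5c*, a deoxynucleotide phosphatase, had an R² of 0.0865 and 0.0640 and its maximum at the other end of the cycle, at 0.02π and 0.135π by the harmonic fit.

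The paralogues that serve outside S phase or in mitochondria were flat on this measure. *Rrm2b*, the small reductase subunit of non-dividing and damaged cells, had a lower R² of 0.000992 (rank 7265) and was detected in 12.8% and 8.37% of cells. *Tk2*, the mitochondrial thymidine kinase, had 0.000343 (rank 9729), with detection in 10.2% and 8.60%. *Dguok*, the mitochondrial deoxyguanosine kinase, had 0.00232 (rank 4624) although it was detected in 33.1% and 25.2% of cells, close to *Dck*, which was detected in 37.5% and 23.2%. Each lay near the median of all genes, 0.00183, or below it. *Samhd1*, which degrades dNTPs, had 0.0167 (rank 1020) and was not called. The genes just inside and just outside the threshold of 0.05 were *Ak6*, with R² of 0.0782 and 0.05001, and *Slc29a1*, a nucleoside carrier, with a lower R² of 0.04999. None of the other 4 listed salvage kinases, of the 4 other pool-cleaning enzymes, of the 4 electron donors or of the 4 carriers in the table was called.

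**Figure D5:**
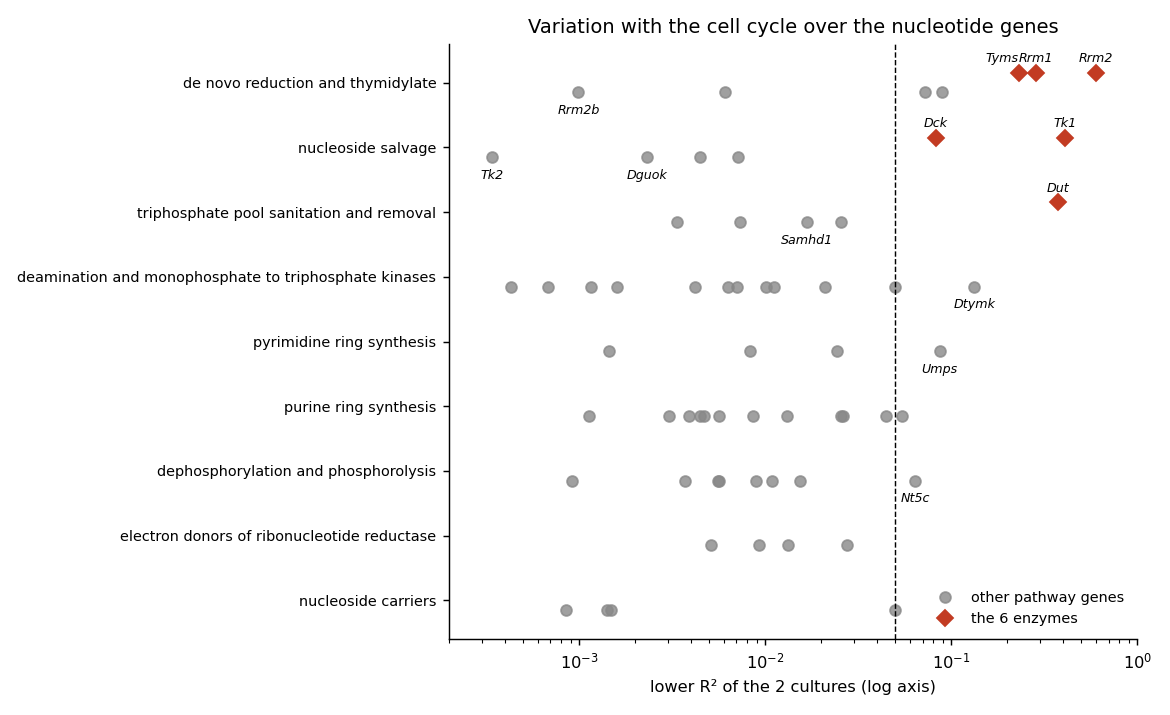
Lower R² of the 2 cultures for the listed genes of nucleotide metabolism (horizontal axis, log scale), by group of the pathway, with members and other genes in separate colours and a vertical line at the threshold of 0.05. All 6 members lie to the right of the line, from *Dck* at 0.0826 to *Rrm2* at 0.600, while *Rrm2b*, *Tk2* and *Dguok* lie far to the left.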

How the data were processed

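Per the labels and methods, the authors quantified spliced reads with alevin (Salmon 1.3.0) against GRCm38 and used Seurat 3.2.2. They removed cells with few genes and outliers by depth, gene number, mitochondrial share and doublet score, and no further doublet caller was run here. Expression is a linear signal, normalized by the authors for the depth of each cell. How values were scaled per gene and culture is not given in the sources used here. The depth of a cell is the deposited sum of its estimated counts. The authors' per-cell table also gives position and stages. Every per-sample column was mapped to a culture (0 unmapped).

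Values were transformed as log2(value + 1), and understate the change of low genes. Within each culture, 2 harmonics of the position were fitted by least squares to all 10666 genes (symbols matched for 10662), with a call at R² of at least 0.05 in both cultures. Periodic loess lines (degree 2, span 0.3) were fitted to tripled cells and read at 401 positions. The step of each gene and culture was the largest of which at least 90% of its low nonzero values were whole multiples. Those low values, of a few steps, came out as whole multiples, within 0.1, in between 93.2% and 99.9% of cases per member and culture. High shares follow from that choice of step and are no check of it. For *Tyms* the step was read as a fraction of a UMI. The steps gave UMIs per 10000 and allowed thinning to 10000 UMIs. Shares have exact 95% binomial intervals. The 2 cultures are the only replicates, so no group was compared and no p-value is given. Labels name the cultures replicates without saying whether they came from separate embryos. The fits were tested on simulated data. Python 3.11.15 with numpy 2.4.6, pandas 2.3.3, scipy 1.17.1 and matplotlib 3.10.9, and R 4.3.3, were used. Gene models are GENCODE vM21 and promoters RefSeq.

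The members and lists were chosen with earlier results of these data known. Genes named are the members, called pathway genes, fixed paralogues, the 3 genes most correlated with each member, and *Mcm2* to *Mcm7* and mitotic genes for comparison. *Slc29a1*, just under the threshold, was named after their values were seen. One gene of the plan's pathway list is not reported here and is left out of the list's counts. The alternatives changed the curve, the span, the pseudocount, the threshold, the depth band, the position, the stage method, the filter on low genes and the cultures used.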

Additional observations from a re-analysis of the deposited data

How the results depend on the processing

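All 6 members were called under each alternative run except an R² threshold of 0.1, which left 5, without *Dck*. By arc, all 6 were also highest from 0.75π to π in UMIs per 10000 and in thinned shares. The same held for shares of cells above 0, in all cells and in cells of 12000 to 20000 UMIs. Arcs were not rerun with the other position or pseudocounts. With the position built without the members, the loess maxima of *Dck* and *Tyms* in culture 2 lay earlier, at 0.7π and 0.74π. A threshold of 0.02 called 8.34% of all genes and one of 0.1 called 2.25%, and 3.76% and 1.003% were called with a maximum between 0.5π and π. The median maximum of the members, 0.853π, became 0.845π with harmonics, 0.84π in cells of 12000 to 20000 UMIs, 0.916π and 0.959π at spans of 0.1 and 0.5, and 0.813π with a position built from 88 Seurat genes without the members (circular correlation with the deposited position 0.926 and 0.920). The median amplitude, 1.18, became 1.35 with harmonics, 0.82 on UMIs per 10000 (chosen after seeing the data), 1.46 and 0.98 at spans of 0.1 and 0.5, and 2.24 and 0.47 with pseudocounts of 0.25 and 4. The median midpoint of the rise, 0.394π, became 0.401π on UMIs per 10000 and in the depth band, 0.448π and 0.521π at the 2 spans, 0.35π without the members in the position, and 0.38π and 0.413π with the 2 pseudocounts. That of the fall, 1.38π, became 1.42π in the depth band, 1.25π and 1.42π at the 2 spans, and 1.40π and 1.37π with the 2 pseudocounts. The count of members higher in S than in G2M, 1 by Seurat (*Dck*), became 3 by cyclone (*Rrm2*, *Tk1* and *Dut*) and 6 by SchwabeCC, so the direction of *Rrm1*, *Rrm2* and *Dut* between these stages turned with the stage method. The cause of these moves was not tested, except that pseudocount and span set the amplitude by construction. Of the values for such summaries, 72 stayed and 29 did not stay within the spread between cultures or 1.5 times the count. The 72 include values with 1 culture left out. Where the spread between the cultures was the limit, these stay within it by construction and say nothing of stability. With 1 culture left out, genes called ran from 4.26% to 5.60% and those peaking between 0.5π and π from 2.29% to 2.74%. The members called stayed at 6, which the call in both cultures already fixed. The median maximum ran from 0.85π to 0.855π, amplitude from 1.12 to 1.24, R² from 0.326 to 0.445, rise from 0.39π to 0.398π and fall from 1.38π to 1.39π. Depth limits the detected shares, most in culture 2, and 2 cultures limit every spread given. No paired analysis was possible because there is 1 group. The search of protein sequences for degradation motifs was not run.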

Other observations

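The deposited values rescale each gene separately in each culture. The smallest step between values was 1.59 times as large in culture 2 as in culture 1 for *Rrm2*, 1.53 times for *Rrm1*, 1.42 times for *Tyms*, 1.22 times for *Tk1*, 1.15 times for *Dut* and 1.09 times for *Dck*. For 7982 genes detected in 2% to 70% of cells, the step was approximated by the 15th percentile of the gene's scaled nonzero values. The ratio of these approximate steps had a median of 1.02, and its 5th and 95th percentiles were 0.616 and 1.48. By that measure *Rrm1* lay above 96.0% of the genes. *Rrm2*, detected in 72.9% of the cells of culture 1, was not among them, so it has no place in that ranking. The difference in level between the cultures therefore depends on the scale. The mean of *Rrm2* over all cells was 1.39 times as high in culture 1 as in culture 2 as deposited and 2.23 times as high in UMIs per 10000, and that of *Rrm1* was 1.42 and 2.18 times as high. For *Tk1* the ratios were 1.39 and 1.69, for *Tyms* 1.29 and 1.82, for *Dut* 1.10 and 1.26, and for *Dck* 1.299 and 1.36. All 6 members were higher in culture 1 on both scales, as were more than 50% of the 7982 genes above. Over those genes the median ratio was 1.07 as deposited and 1.08 in UMIs by the approximate steps. The 95th percentiles were 1.38 and 1.84, and *Tyms*, *Dut* and *Dck* lay below these on both scales. Culture 1 also had the larger share of its cells from 0.5π to 1.25π, for example 17.3% against 7.74% from 0.75π to π. Within that arc *Rrm2* had means of 8.71 and 8.53 as deposited but of 5.87 and 3.55 UMIs per 10000, and *Rrm1* of 2.51 and 2.28 as deposited but of 1.66 and 0.971 UMIs per 10000. *Dut* was higher in culture 2 in that arc, with 4.94 and 5.85 as deposited and 2.82 and 2.94 UMIs per 10000, and the part of the make-up of the cultures in the ratios over all cells was not tested. *Tyms* values moved in steps of which many were fractions of a whole UMI, and its annotated pseudogene *Tyms-ps* could share its reads; whether it did was not tested.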
